A study of Rattus norvegicus with 2 samples.

Results

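The genes described here encode 5 secreted CC chemokines (Ccl2, Ccl3, Ccl4, Ccl7 and Ccl12) and 2 chemokine receptors (Ccr1 and Ccr2). They were chosen by gene symbol, and 6 of the 7 named symbols matched a row of the deposited table of 32623 genes. Ccr2 is not analysed here. CC chemokines are small secreted proteins that guide leukocytes through G protein-coupled receptors. Ccl2, Ccl7 and Ccl12 are monocyte chemoattractants that signal mainly through Ccr2, whereas Ccl3 and Ccl4 are macrophage inflammatory proteins. Ccr1 binds Ccl3 and Ccl7 among others. Microglia, the resident macrophages of the brain, make several of these ligands when activated, and glucocorticoids are known to repress many chemokine genes in macrophages.

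The cells were hippocampal microglia of fetal rats, isolated by flow sorting at gestational day 20 and profiled one by one with droplet RNA sequencing. Each of the 2 libraries pooled 7 male embryos. The groups differed in prenatal exposure to dexamethasone, a synthetic glucocorticoid, which the control group did not receive. The strain, the genotype and the dose are not given in the sources used here. With 1 library per group, the exposure and the library cannot be told apart, so no test was made, and each interval below is a 95% interval that covers counting error only.

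The dexamethasone library held 4328 barcodes and the control library 8342, with 5 barcodes in common, and 4198 and 8044 cells passed the filters. Unique molecular identifiers (UMIs), which count captured transcript molecules, totalled 42611920 and 69940778. Most cells were microglia-like (3289 and 6359), with Tmem119 and P2ry12 among the leading genes of their largest cluster. Border-associated-macrophage-like cells, with the markers Mrc1 and F13a1, numbered 571 and 826. The remainder were monocyte/neutrophil-like, neuron-like or erythroid-like. The median depth of microglia-like cells was 8852 UMIs with dexamethasone exposure and 7809 UMIs without. Their median share of mitochondrially encoded UMIs was 2.97% against 5.93%, and cluster 2, led by ribosomal protein genes, held 687 dexamethasone cells but 215 control cells. The part of these library differences in the chemokine results was not tested.

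Sequence upstream of the start site was taken from RefSeq (GRCr8) for Ccl7, Ccl12 and Ccr1, the analysed genes with a usable promoter entry. Ccl2, Ccl3 and Ccl4 had no usable entry, so their sequences are not shown. In the RefSeq gene order on chromosome 10, Ccl2 and Ccl7 are direct neighbours, 1 gene (Ccl11) lies between Ccl7 and Ccl12, and Ccl3 and Ccl4 are direct neighbours in a group 47 genes further on. Each line gives the 250 bases before the start, 5′ to 3′ on the gene's strand, with motif matches in capitals.
Ccl7, chr10:67513845-67514094, plus strand: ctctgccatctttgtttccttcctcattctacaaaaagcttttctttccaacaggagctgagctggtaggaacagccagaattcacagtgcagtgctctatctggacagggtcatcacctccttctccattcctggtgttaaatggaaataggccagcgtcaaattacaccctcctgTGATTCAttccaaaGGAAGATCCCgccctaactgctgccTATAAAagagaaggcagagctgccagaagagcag
Ccl12, chr10:67567626-67567875, plus strand: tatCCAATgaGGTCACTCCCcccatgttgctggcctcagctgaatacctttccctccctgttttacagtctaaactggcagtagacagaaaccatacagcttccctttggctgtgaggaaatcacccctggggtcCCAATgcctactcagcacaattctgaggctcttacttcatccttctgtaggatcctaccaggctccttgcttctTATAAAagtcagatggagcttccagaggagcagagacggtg
Ccr1, chr8:132439267-132439516, minus strand: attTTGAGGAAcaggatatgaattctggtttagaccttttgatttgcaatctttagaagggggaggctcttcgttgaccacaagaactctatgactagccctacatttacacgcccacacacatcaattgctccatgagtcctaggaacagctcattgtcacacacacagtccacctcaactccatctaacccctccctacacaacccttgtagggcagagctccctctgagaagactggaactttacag
The motifs searched on both strands were kB (GGG and CC with any 5 bases between), AP-1 (TGANTCA), the TATA box (TATAAA), the CCAAT box (CCAAT), C/EBP (TTNNGNAA) and a glucocorticoid receptor element (GNACA and TGTNC with any 3 bases between). Ccl7 held an AP-1 match at -73, a kB match at -59 on the opposite strand and a TATA box at -34. Ccl12 held 2 CCAAT boxes, the first at -247, a kB match at -240 on the opposite strand and a TATA box at -41. In the Ccr1 window the only match was C/EBP at -247. Of 33469 promoters of the same length, 42.3% held a kB match, 6.34% AP-1, 12.9% TATAAA, 34.0% CCAAT, 37.2% C/EBP and 0.373% the glucocorticoid receptor element. None of these matches overlapped, and a match describes letters, not a bound site.

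In microglia-like cells, 4 of the 6 genes stood higher in the dexamethasone library by a log2 ratio of at least 0.5, and 0 stood lower by that size. Among the 12494 genes with at least 20 UMIs in these cells, 6.47% were higher and 6.35% lower by the same rule, and the median log2 ratio over those genes was -0.01. Levels are in CPM, the UMIs of a gene summed over a class per 1000000 UMIs of those cells. They are not corrected for transcript length, so they are compared within a gene.

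Of the monocyte chemoattractants, Ccl12 had the largest ratio, at 34.9 CPM in the dexamethasone library against 15.5 CPM in the control library. Its log2 ratio was 1.17 (interval 1.05 to 1.30). Ccl2 stood at 82.0 CPM against 48.4 CPM, with a log2 ratio of 0.76 (0.68 to 0.84). Ccl7, its neighbour on the chromosome, stood at 75.2 against 49.1 CPM, with 0.62 (0.54 to 0.69). The dexamethasone library was the higher of the 2 for each of these monocyte-attracting ligands.

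Among the macrophage inflammatory proteins, Ccl4 stood at 55.8 CPM against 31.1 CPM, with a log2 ratio of 0.84 (0.75 to 0.94). Ccl3 stood at 170.1 against 128.0 CPM, and its ratio of 0.41 (0.36 to 0.46) did not reach the threshold. The receptor Ccr1 stood at 2.92 against 3.26 CPM, with a ratio of -0.16 (-0.53 to 0.20), an interval that spans 0.

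The ligand ratios were above 0 in each of 13 alternative analyses, but the count past the threshold depended on which cells were called microglia-like. It was 2 when the chemokine genes were left in for clustering, and also 2 (Ccl2 and Ccl12) when border-associated-macrophage-like cells were added. At a finer clustering it was 1, with the Spp1-led cluster left unnamed, and 4 once that cluster was added back. The share over all genes was not computed for these other cell sets, so these counts have no background beside them.

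**Figure D1:**
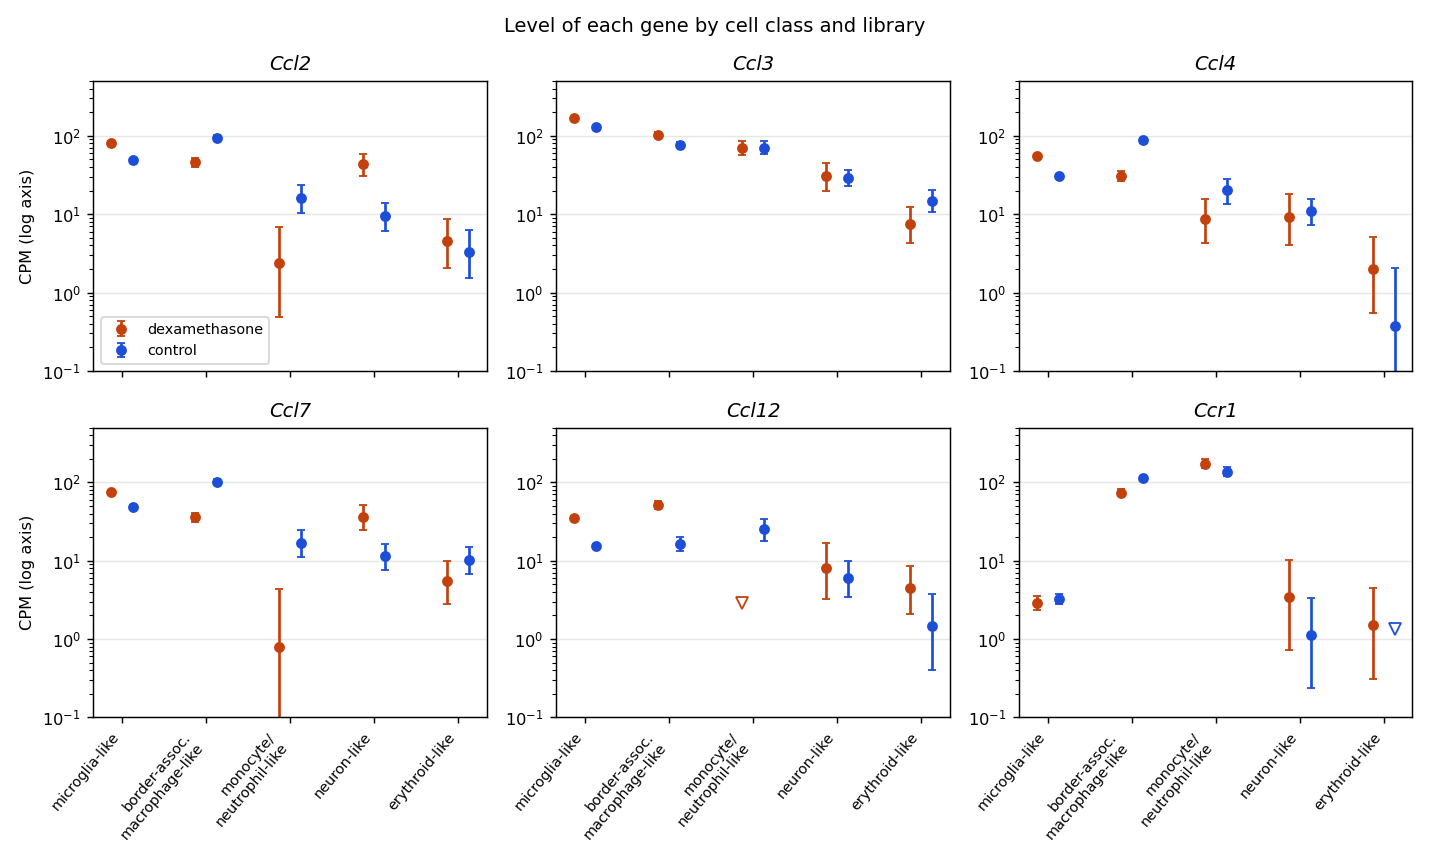
Level of each gene in 5 cell classes, in CPM on a log axis, with exact Poisson 95% intervals, for the dexamethasone (orange) and control (blue) libraries. Open triangles mark the upper bound where a class held 0 UMIs. Ccr1 stands at 73.9 and 113 CPM in border-associated-macrophage-like cells and at 2.92 and 3.26 CPM in microglia-like cells.

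The share of cells carrying a gene was set apart from the level per carrying cell after each microglia-like cell was thinned at random to 3900 UMIs. This kept 3115 dexamethasone and 5763 control cells, leaving out 174 and 596 shallower ones. At least 1 UMI of any of the 5 ligands was found in 39.1% of dexamethasone cells (37.4 to 40.8%) and in 29.1% of control cells (27.9 to 30.3%). The difference was 9.99 percentage points (7.08 to 12.9). Without thinning the shares were 53.2% and 40.7%. At least 10 ligand UMIs were held by 79 dexamethasone cells (2.54%) and 85 control cells (1.47%).

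Carriers of Ccl3 were the most frequent, at 28.6% of dexamethasone and 20.8% of control cells, a difference of 7.80 points (5.15 to 10.5). Each carrier held 2.11 against 2.07 UMIs on average. Of its thinned log2 ratio of 0.49, 94.2% lay in the share of cells. However, 59.0% of the dexamethasone and 61.9% of the control carriers held a single UMI. At counts this low a higher level in every cell would also raise mainly the share. The split therefore cannot separate more expressing cells from a higher level per cell.

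Ccl12, the chemoattractant with the largest ratio, was carried by 5.10% of dexamethasone and 2.15% of control cells, a difference of 2.95 points (1.80 to 4.14). Its carriers held 3.01 against 2.43 UMIs. Ccl4 was carried by 6.52% against 4.22%, a difference of 2.30 points (0.91 to 3.73), with 2.88 against 2.65 UMIs per carrier. The share of cells made up 80.2% of the thinned log2 ratio for Ccl12 and 83.9% for Ccl4. The limit given for Ccl3 holds here too, since the median carrier of either gene held 1 UMI in both libraries.

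Ccl2 and Ccl7 differed between the libraries in both quantities. Ccl2 was carried by 7.87% against 5.57% of cells, a difference of 2.30 points (0.75 to 3.87), and its carriers held 3.91 against 2.87 UMIs. Ccl7 was carried by 5.94% against 4.79%, a difference of 1.15 points whose interval (-0.24 to 2.58) spans 0, with 4.61 against 3.34 UMIs per carrier. The share of cells made up 52.6% of the thinned ratio for Ccl2 and 40.1% for Ccl7, so the share was the larger term in 4 of the 5 ligands, with Ccl2 close to a tie. That count was 3 with another random draw of the thinning, without thinning, with cells gated by markers and without the cycling clusters, and 5 at Leiden resolution 1.0. Ccr1 was carried by 31 of 3115 and 55 of 5763 cells, 0.995% and 0.954%.

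**Figure D2:**
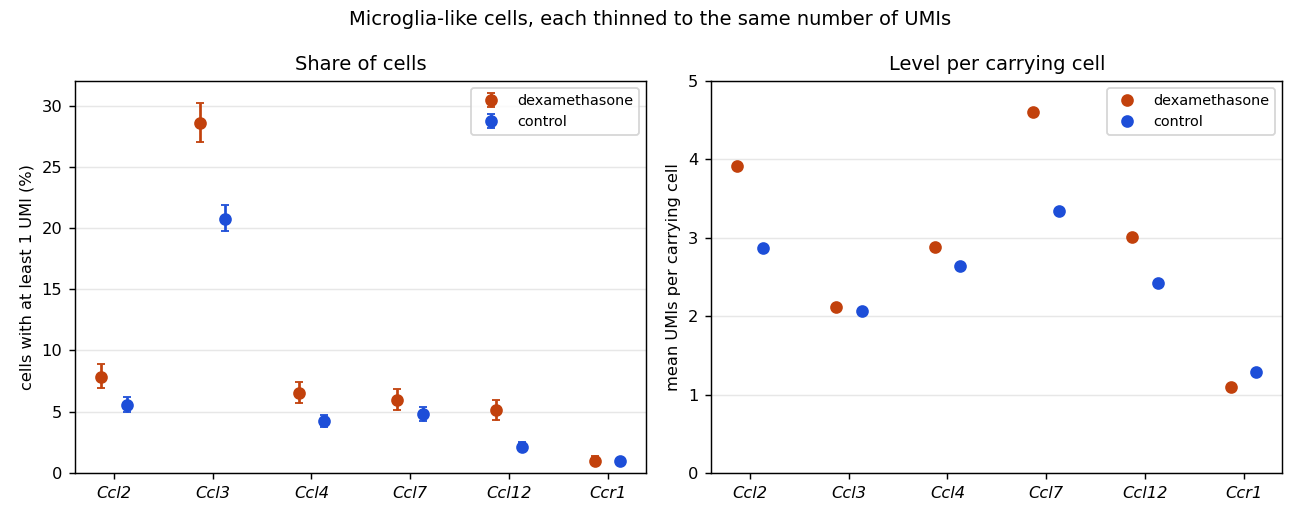
Left, percentage of microglia-like cells with at least 1 UMI after thinning to 3900 UMIs, with exact Clopper-Pearson 95% intervals. Right, mean UMIs per carrying cell. Ccl3 differs between the libraries in the share of cells (28.6% against 20.8%) and little in the level per carrier (2.11 against 2.07 UMIs).

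A mean per carrier hides how unequal the carriers were. In the thinned dexamethasone cells the median carrier held 2 UMIs of Ccl2 or Ccl7 and 1 UMI of Ccl3, Ccl4 or Ccl12, while the highest single cells held 48 of Ccl2, 54 of Ccl7, 86 of Ccl4, 70 of Ccl12 and 47 of Ccl3. The 1% of dexamethasone cells with the most UMIs of a gene, 32 cells, held 56.6% of the Ccl2, 59.8% of the Ccl4, 62.7% of the Ccl7 and 66.1% of the Ccl12 UMIs, but 21.4% of the Ccl3 UMIs. The control carriers had a median of 1 UMI of each ligand. There the 58 highest cells held 58.3%, 68.3%, 67.0% and 78.1% of those 4 genes and 26.2% of Ccl3. Ccl3 was thus spread over many cells, and the other ligands were concentrated in few. Before thinning, the microglia-like cell with the most ligand UMIs held 779 of its 14472 UMIs (5.38%) as ligands in the dexamethasone library and 485 of 8909 (5.44%) in the control library. Without both of those cells the log2 ratios were 0.73 for Ccl2, 0.77 for Ccl4 and 0.53 for Ccl7.

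**Figure D3:**
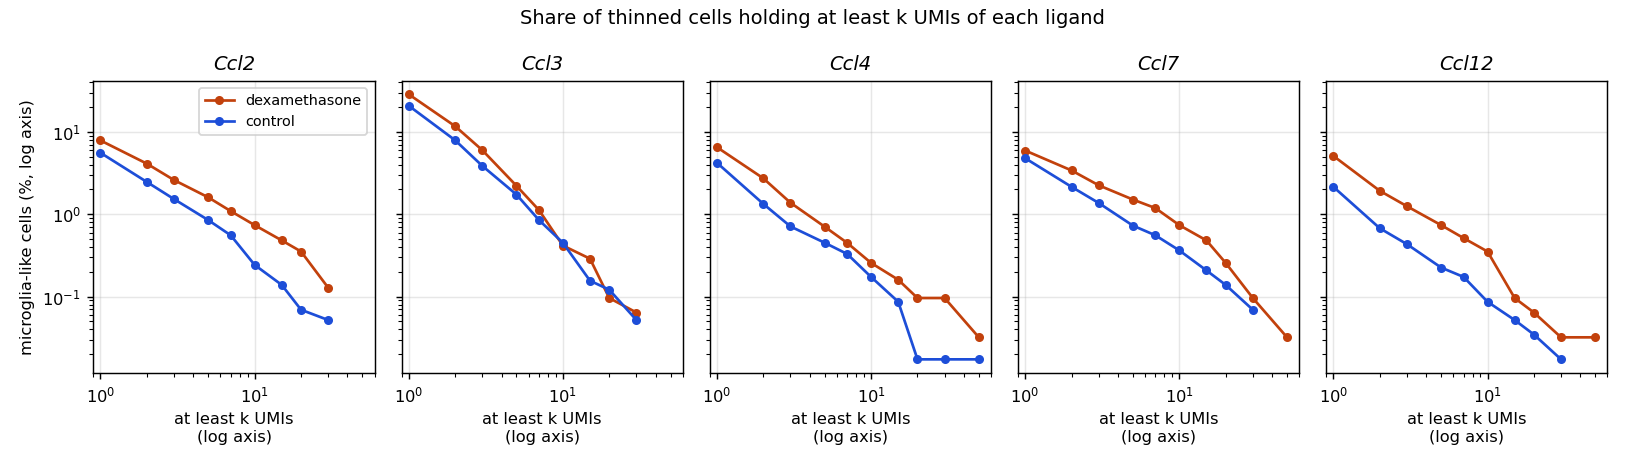
Percentage of thinned microglia-like cells holding at least k UMIs of each ligand, both axes logarithmic, for the dexamethasone (orange) and control (blue) libraries. The Ccl3 curves start highest (28.6% and 20.8% at 1 UMI) and meet at 10 UMIs, and those of Ccl2 and Ccl12 stay apart there.

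Which ligands shared a cell was measured as the number of thinned microglia-like cells with both, over the number that the product of the 2 shares gives. Ccl2 and Ccl7 were found together in 107 dexamethasone cells where the product gives 14.6, a ratio of 7.35 (6.03 to 8.89). In the control library they shared 137 cells where it gives 15.4, a ratio of 8.91 (7.48 to 10.5). Of the Ccl7 carriers, 57.8% and 49.6% also carried Ccl2. With the product taken within each cluster, the ratios were 4.98 and 6.42, smaller but still above 1. Pearson's r between these genes across the cells of a library was 0.75 and 0.67.

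The other neighbouring pair, Ccl3 and Ccl4, had lower ratios of 1.88 (1.54 to 2.27) and 2.24 (1.85 to 2.69). Ccl4 with Ccl12 stood at 2.70 (1.80 to 3.91) and 4.02 (2.49 to 6.14). Ccl3 with Ccl12 stood at 0.97 (0.70 to 1.30) and 1.20 (0.82 to 1.71), the only pair not above 1 in both libraries. Of the 10 ligand pairs, 9 were above 1 in both libraries and 8 had both intervals above 1.

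Cells that carried several ligands were a small group. In the dexamethasone library 883 thinned cells carried 1 of the ligands, 230 carried 2, 81 carried 3, 19 carried 4 and 4 carried 5. In the control library the numbers were 1319, 258, 76, 17 and 6. Before thinning, carriers of Ccl2 or Ccl7 had a median of 10589 and 9612.5 UMIs, above the 8901.5 and 8067 of cells with no ligand. Border-associated-macrophage markers summed to 2555 and 2818 CPM in those carriers against 1487 and 1669 CPM in cells with no ligand. Doublets remained in the data. The part of depth, of doublets and of these macrophages in the sharing was not tested.

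**Figure D4:**
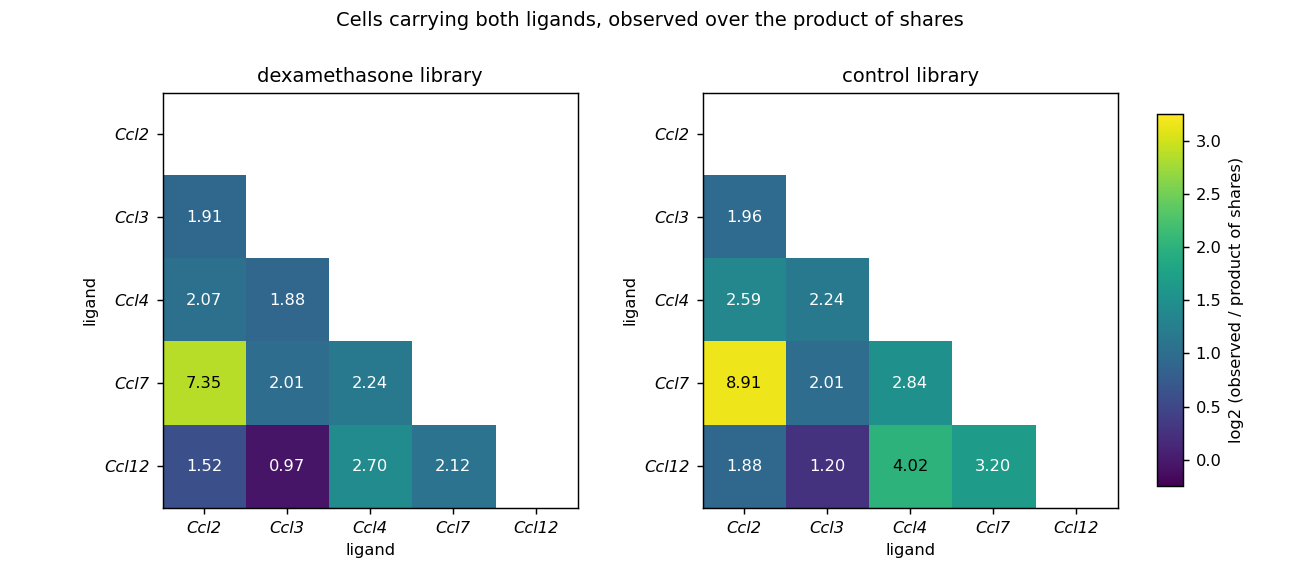
Cells carrying both ligands of a pair over the number given by the product of the shares, printed in each square and coloured on a log2 scale, in thinned microglia-like cells of each library. Ccl2 with Ccl7 is the highest square in both (7.35 and 8.91), and Ccl3 with Ccl12 the lowest (0.97 and 1.20).

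Outside the family, the genes most like each ligand across microglia-like cells were ranked by the lower of the r values of the 2 libraries, over 9317 genes carried by at least 1% of cells in each. For Ccl2 the closest was Rcan1, a feedback inhibitor of calcineurin, with r of 0.43 in the dexamethasone and 0.32 in the control library. It was followed by the transcription factor Egr2 (0.21 and 0.24), Lpl, Tnfsf18 and Plau. For Ccl7 the first 4 were the same genes in the same order, with Rcan1 at 0.41 and 0.32. Nfil3 was the fifth. The r values of all ligands pool the microglia-like clusters, and the part of cluster membership in them was not tested. At a finer clustering (Leiden resolution 1.0), Ccl2, Lpl and Rcan1 were leading genes of the same cluster.

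Ccl3 had other companions. Its closest gene was Csf1, which encodes a growth factor for macrophages (0.31 and 0.31), followed by Atp1b1, Rab7b, Gpnmb and Tnfsf18, all at 0.25 or more in both libraries. For Ccl4 (Plau, Rcan1, Egr2, Btg2 and Rab7b) and Ccl12 (Il1b, Plek, Btg2, Ccnd1 and Jun) no gene exceeded 0.19 in either library, which in sparse counts is not a finding. Ccr1 was not ranked, being under 1% of cells.

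Among the microglia-like clusters, the ligands were not evenly spread. Cluster 3, led by Spp1, Gpnmb and Csf1, genes of the amoeboid microglia of developing axon tracts, had the highest Ccl2, Ccl3 and Ccl7 in both libraries. Ccl2 stood there at 203 CPM in the dexamethasone and 99.9 CPM in the control library, and Ccl7 at 192 and 102 CPM. Ccl3 stood at 358 and 302 CPM, and 46.2% and 41.4% of thinned cluster 3 cells carried it. This cluster, 825 and 1325 cells, held 64.1% and 43.3% of the Ccl2 UMIs of its library.

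Ccl12 had another distribution. In the dexamethasone library it was highest in cluster 0, the cells with Tmem119 and P2ry12 among their leading genes, at 82.4 CPM against 13.6 CPM in the control library, a log2 ratio of 2.60 (2.37 to 2.83). There 7.72% against 2.23% of thinned cells carried it, a difference of 5.49 points (2.89 to 8.35), and 1 dexamethasone cell held 161 of the 428 UMIs (37.6%). Without the highest cell of each library the ratio was 2.18. In cluster 3 Ccl12 stood at 22.2 and 15.3 CPM. The order of clusters differed in the control library, where cluster 0 was not the highest. There Ccl12 was highest in cluster 2, at 55.7 CPM (17.5 CPM without its highest cell), followed by cluster 6 at 25.8 CPM.

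Within single clusters the library difference was not uniform. Of the 6 microglia-like clusters, 5 had higher CPM in the dexamethasone library for Ccl2, Ccl3 and Ccl12, and 4 for Ccl4 and Ccl7. The intervals lay below 0 in cluster 6, led by S-phase genes, for Ccl2 (-0.76), Ccl4 (-0.47) and Ccl7 (-1.06), and in cluster 2 for Ccl4 (-2.00), Ccl7 (-0.70) and Ccl12 (-1.03). Some of these directions rested on single cells, and 1 control cell of cluster 2 held 71.6% of its 81 Ccl4 UMIs. Without the highest cell for each gene and library, the cluster 2 ratios were -0.63 for Ccl4 but 0.54 for Ccl7 and 0.32 for Ccl12. In cluster 6 they were then -0.75 for Ccl2, -0.16 for Ccl4 and -0.85 for Ccl7. By the share of thinned cells carrying the gene, the dexamethasone library was the higher in 6 of 6 clusters for Ccl2 and Ccl3, and in 5 of 6 for Ccl4, Ccl7 and Ccl12. Many of these differences had intervals that span 0. The intervals lay above 0 only in clusters 3 and 5 for Ccl2, clusters 0 and 4 for Ccl3 and cluster 0 for Ccl4. For Ccl12 they did so in clusters 0, 3 and 6, and for Ccl7 in none. In cluster 6 the Ccl2 shares differed by 0.08 points. Cluster 2 was much shallower in the control library, with a median of 2601 UMIs against 7712 UMIs in the dexamethasone library. Thinning left out 125 of its 215 control cells but 54 of its 687 dexamethasone cells. The control shares of cluster 2 thus rest on 90 cells, with 2 carriers of Ccl2 and 10 of Ccl3. The part of this loss in the cluster 2 directions was not tested.

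**Figure D5:**
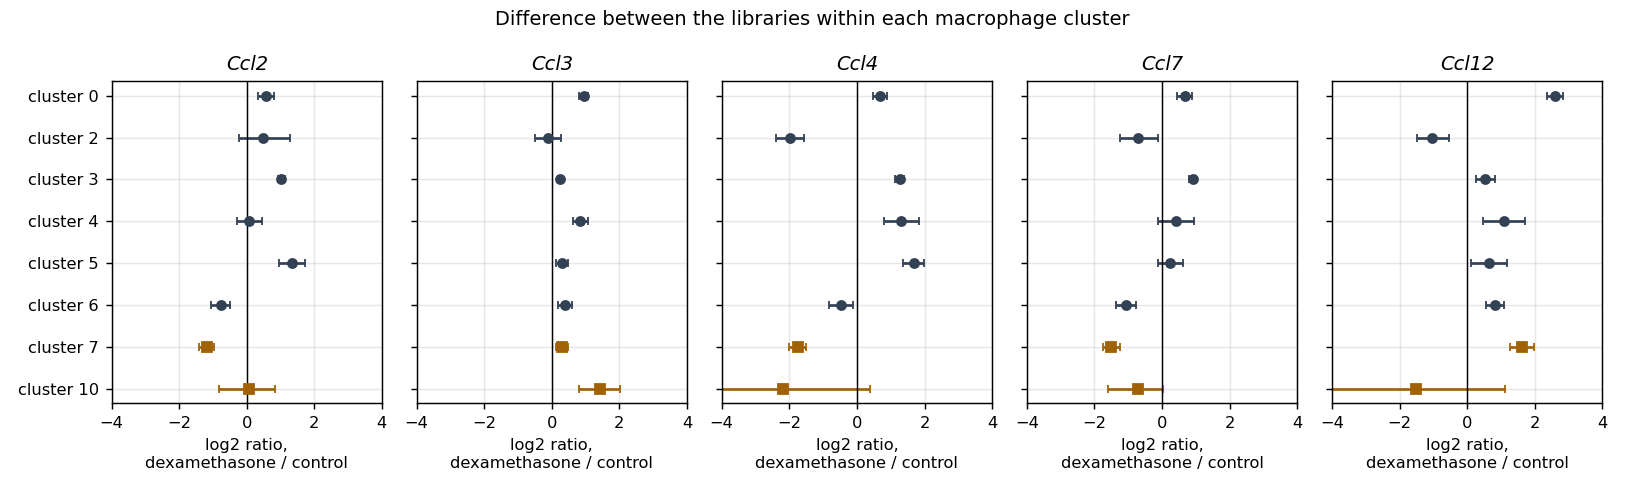
Log2 ratio of CPM, dexamethasone over control, of each ligand in 6 microglia-like clusters (circles) and 2 border-associated-macrophage-like clusters (squares), with 95% counting intervals, clipped at -4. In cluster 0 Ccl12 stands farthest to the right (2.60), and in clusters 6 and 7 Ccl2, Ccl4 and Ccl7 stand left of 0.

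By cell class, microglia-like cells held most ligand UMIs, between 79.0% (Ccl12) and 91.0% (Ccl7) in the dexamethasone library and between 73.6% (Ccl4) and 90.9% (Ccl3) in the control library. These cells were 78.3% and 79.1% of all cells. Ccl12 with dexamethasone exposure, and Ccl2 (80.3%) and Ccl7 (78.9%) in the control library, were thus near the share of cells, and control Ccl4 was below it. With every cell thinned to 1500 UMIs, a ligand was carried by 22.3% and 15.9% of microglia-like cells and by 23.5% and 17.0% of border-associated-macrophage-like cells, in the dexamethasone and control libraries. Among monocyte/neutrophil-like cells it was 8.16% and 11.4%. Neuron-like cells, which should lack these genes and can show free RNA, stood at 6 of 100 cells and 5.44%, and erythroid-like cells at 2.94% and 0.763%. Their median depths before thinning ranged from 2366 to 21479 UMIs. Ccl3 in microglia-like cells (13.7% and 10.6%) lay above its interval in neuron-like cells of both libraries (1.10 to 9.93% and 1.38 to 5.21%). For Ccl2, at 4.42% and 3.02% of microglia-like cells, the neuron-like intervals (0.62 to 8.52% and 0.63 to 3.70%) hold both values. The same was true of Ccl7, at 3.81% and 2.71% (0.24 to 7.04% and 0.47 to 3.31%), of Ccl12, at 2.70% and 62 of 6188 cells (0.03 to 5.45% and 0.01 to 1.59%), and of Ccl4 in the dexamethasone library, at 4.09% (0.03 to 5.45%). Against neuron-like cells, single UMIs of these ligands therefore cannot be told from free RNA at this depth. This also touches their shares of carrying cells above. Ccl2 was in 0 of 102 and 0 of 131 erythroid-like cells, with upper bounds of 3.55% and 2.78%, below the microglia-like shares. Ccl4 in the dexamethasone library was likewise in 0 of 102 (bound 3.55%). For Ccl7 (5.34% and 2.78%) and Ccl12 (3.55% and 2.78%) the erythroid-like upper bounds lay above the microglia-like shares. Cells with 10 or more ligand UMIs at 3900 UMIs per cell were 1 of 75 and 1 of 233 among neuron-like cells.

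In border-associated-macrophage-like cells, the macrophages of meninges and vessels, Ccl12 stood at 51.6 CPM in the dexamethasone and 16.4 CPM in the control library, a log2 ratio of 1.66 (1.33 to 1.99). Ccl3 stood at 102 and 75.8 CPM, with 0.43 (0.25 to 0.61). The other ligands were lower in the dexamethasone library, with -1.03 for Ccl2, -1.50 for Ccl4 and -1.50 for Ccl7. By a log2 ratio of 0.5, 4 members were lower (Ccr1 included) and 1 higher, against 9.24% of 9996 genes lower, 6.86% higher and 16.1% either way in these cells. A single control cell of 20676 UMIs held 268 Ccl2, 453 Ccl4 and 278 Ccl7 UMIs, which was 80.0% of the Ccl4 of its class. Without the highest cell of each library the ratios were -0.49 for Ccl2, 0.41 for Ccl4 and -0.86 for Ccl7. With the chemokine genes left in for clustering, that control cell joined the microglia-like class. The ratios were then 0.31 for Ccl2 (-0.03 to 0.66, which spans 0), 1.0 for Ccl4 and -0.85 for Ccl7. The direction of Ccl4 here thus depended on the clustering, and under that clustering the direction of Ccl2 was not clear. The thinned share carrying Ccl2 was 7.37% with dexamethasone exposure against 5.87%, and the interval of the difference (-2.46 to 5.57 points) spans 0. The thinned share carrying Ccl4 was 7.91% in the dexamethasone library against 3.07%, higher by 4.84 points (1.24 to 8.52), and that carrying any ligand was 39.4% against 31.2%, a difference of 8.15 points (0.61 to 15.7).

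Ccr1, a receptor for Ccl3 and Ccl7, had a different cell distribution from the ligands. It stood at 174 CPM in the dexamethasone and 137 CPM in the control library in monocyte/neutrophil-like cells, at 73.9 and 113 CPM in border-associated-macrophage-like cells, and at 2.92 and 3.26 CPM in microglia-like cells. At 1500 UMIs per cell, 22.4% and 20.7% of monocyte/neutrophil-like cells carried it, 10.5% and 15.1% of border-associated-macrophage-like cells, and 0.430% and 0.372% of microglia-like cells. No neuron-like or erythroid-like cell carried it, which allows up to 3.62% and 1.05% of neuron-like cells. The microglia-like share is within that allowance, so at this depth it cannot be told from free RNA. At full depth the microglia-like intervals were 2.36 to 3.57 CPM in the dexamethasone and 2.80 to 3.77 CPM in the control library. Erythroid-like cells stood at 1.51 CPM (0.31 to 4.42) and 0 CPM (upper bound 1.36), and neuron-like cells at 3.49 and 1.14 CPM. The part of free RNA in these levels was not tested.

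These 3 classes had the same order in both libraries. Monocyte/neutrophil-like and border-associated-macrophage-like cells had separate intervals in the dexamethasone library (152 to 198 and 66.9 to 81.4 CPM) but overlapping ones in the control library (119 to 157 and 105 to 121 CPM). Between the libraries, border-associated-macrophage-like cells had a Ccr1 log2 ratio of -0.61 (-0.79 to -0.44). It was -0.23 (-0.44 to -0.02) in cluster 7 alone and 0.05 (-0.41 to 0.48) in cluster 10. Cluster 10, with Cd163, Clec10a and Ccl24, had 231 and 224 CPM but 21 dexamethasone cells against 155 control cells. Ccr1 itself was among the leading genes of both clusters, so its height there describes the clusters. Microglia-like cells with a Ccr1 UMI, 31 and 55 after thinning, had border-macrophage markers at a summed 2382 and 3105 CPM, against 1611 and 1777 CPM in those without. Of the 11 markers, 7 stood higher with a Ccr1 UMI after dexamethasone exposure and 10 among controls. F13a1 was at 265 against 54.3 CPM and 131 against 5.75 CPM, whereas Maf was at 165 against 187 CPM and 228 against 221 CPM, and Ccl24 was at 0 in the Ccr1 carriers of both libraries. The part of misplaced macrophages was not tested.

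The ligand carriers differed from other microglia-like cells in further ways. Immediate-early genes, which respond within minutes to stimuli and to tissue dissociation, summed to 1168 CPM in dexamethasone cells with a ligand UMI against 753 CPM in those without, and to 876 against 699 CPM in the control library. In cells with 10 or more ligand UMIs the sums were 1717 and 1276 CPM. All thinned cells were split in 3 by their immediate-early UMIs. The share with a ligand was higher in the dexamethasone library by 4.36 points (-0.39 to 9.16) in the lowest group, which spans 0. It was 35.2% against 27.2% in the middle group (interval of the difference 2.91 to 13.1) and higher by 14.7 points (9.48 to 19.9) in the highest. As log2 ratios of thinned UMIs per cell, the library differences of the pooled ligands were alike, at 0.62, 0.63 and 0.68 from the lowest to the highest group. Single ligands were less even. In the same order, Ccl4 stood at 1.55, -0.30 and 0.55, Ccl12 at 0.97, 0.07 and 1.91, and Ccl7 at 0.60, 1.17 and 0.50. Ccl2 stood at 0.90, 1.02 and 0.80 and Ccl3 at 0.35, 0.42 and 0.46. The part of dissociation was not tested. Mitochondrial share hardly differed by ligand status within a library (medians of 2.98% without and 2.92% with a ligand UMI after dexamethasone exposure, and of 5.99% and 5.95% among controls).

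Mast cell and basophil markers were found with Ccl2 in a few cells. Of the microglia-like cells, 7 control and 2 dexamethasone cells held at least 10 UMIs of those markers, and 6 and 1 of them carried Ccl2, with 83 and 10 UMIs. None of them carried Ccl4 or Ccl7. Without them the Ccl2 log2 ratio was 0.80.

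Other genes of the chemokine system were held to the same threshold in microglia-like cells, where 6.47% of 12494 genes were higher and 6.35% lower. Of the other CC ligands, 3 of 14 were measured, with 0 higher and 1 lower by 0.5. That one was Ccl24, at 6 and 35 UMIs (-1.76), a marker of border-associated macrophages named after its value was seen. Ccl6 had a log2 ratio of 0.13, and Ccl9 stood at 5.99 and 7.23 CPM (-0.27). Of 4 other CC receptors measured, 0 passed the threshold. The atypical receptor gene Ccrl2 had a log2 ratio of 0.38 (0.01 to 0.76). Of 9 further chemokine and chemokine receptor genes, 1 was higher. It was Cxcl2, a neutrophil chemoattractant, at 3.84 CPM with dexamethasone and 0.392 CPM without, which is 3.29 (2.63 to 4.02) as a log2 ratio. The fractalkine receptor Cx3cr1 stood at 284 and 358 CPM (-0.33), Cxcl16 at 96.8 and 95.1 CPM (0.03) and Cxcl17 at 39.8 and 50.4 CPM (-0.34).

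Of all 12494 genes measured in microglia-like cells, 6091 were above 0, and 6.47% were higher and 6.35% lower by 0.5. Inflammatory cytokine genes, often induced with these ligands, were above 0 in 8 of 8 measured, with a median log2 ratio of 0.51, and 4 were higher by 0.5. Osm stood at 4.64 against 2.81 CPM (0.72) and Il1b at 19.9 against 13.6 CPM (0.54), as were the scarce Il6 and Il1rn (0.87 for the latter), named after their values were seen, whereas the abundant Tgfb1 and Il18 had ratios of 0.03 and 0.04. Of 26 genes of the NF-kB pathway and its feedback, 20 were above 0, with a median of 0.14, and 3 were higher by 0.5, namely Nfkbiz (0.86), Tnfaip2 (0.74) and the scarce Irak3, at 31 and 36 UMIs (0.57, interval -0.17 to 1.30). The receptor gene Tlr2 (0.06) and Sod2 (0.25) did not reach it. Of 21 immediate-early genes 6 were higher and 1 lower, with a median of 0.17. Egr1 (0.94) and Fos (93.1 against 56.9 CPM, 0.71) had the largest ratios among those with at least 100 UMIs, and the lower gene was the scarce Hspa1b, at 12 and 36 UMIs (-0.80, interval -1.88 to 0.18). The abundant Ier3 and Jund had 0.16 and 0.49.

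Of 12 genes that act on chemokine transcripts or in glucocorticoid responses, 3 were higher and 0 lower, with a median of 0.07. Over all measured genes the shares were 6.47% higher and 6.35% lower. The phosphatase genes Dusp1 (27.3 against 10.9 CPM, 1.32) and Dusp2 (1.81 against 0.944 CPM, 0.94) had the largest ratios, and Zfp36 was the third (0.68). Zfp36l1 and Zfp36l2, which encode proteins that bind AU-rich transcripts, stood at 394 and 362 CPM against 317 and 294 CPM, with ratios of 0.31 and 0.30. Tsc22d3 and Fkbp5, widely used as glucocorticoid target genes, had ratios of 0.04 (-0.09 to 0.17) and -0.36 (-0.48 to -0.24). Per1, at 30 and 72 UMIs, had -0.48 (-1.14 to 0.16), and Anxa1 had -0.26 (-0.51 to -0.01). Like Irak3, Hspa1b and Zfp36, the genes Tsc22d3, Fkbp5, Per1 and Anxa1 were named after their values were seen. Since Dusp1 and Zfp36 of the same list stood higher, these ratios do not describe glucocorticoid-responsive genes as a group.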

How the data were processed

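The deposited values are raw UMI counts per gene and barcode in 1 sparse matrix per library. Per the submitters' processing notes, Cell Ranger 7.0.0 and the Rnor_6.0 build were used. No annotation of that build was used here, and promoter sequence came from another build. The members and gene lists were chosen with earlier results of these data known.

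Barcodes were kept from 200 genes upward and up to 20% mitochondrial UMIs. Scrublet called 1 doublet among 4199 dexamethasone cells, which was dropped, and none among 8044 control cells. So low a rate means that the caller did not work, and doublets remain. Clustering used scanpy 1.11.5 on both libraries without integration (2000 variable genes less 18 chemokine system genes, 30 components, 15 neighbours, Leiden resolution 0.5). Classes were named from the 25 genes of each cluster with the highest fold, among genes of at least 50 CPM and present in 25% of its cells. A name other than microglia needed 2 or more markers of that class there, outnumbering those for microglia. The remaining clusters were microglia-like if 10 or more microglia genes were at 0.6 or more of the median of those clusters, and otherwise unnamed. Cell class names were rebuilt here.

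Counts were summed per class and library and scaled to CPM. Intervals (95%) are exact Poisson for CPM, Clopper-Pearson for shares and conditional binomial for ratios. The interval of a difference of shares runs from the lower bound of one minus the upper bound of the other to the reverse. Thinning drew UMIs without replacement to 3900, a depth that about 10% of cells in the shallower library fall short of, or to 1500 across classes. Likeness named the 5 genes with the highest lower r of both libraries, of log(1 + UMIs). From each gene list the 2 most abundant genes and the 2 with the largest ratio among those with at least 100 UMIs were named, and markers were named where they define a class or cluster. One gene that this rule names is not reported here. The procedures were tested on simulated data. Alternatives covered filters, clustering, thinning depth, scaling and thresholds.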

Additional observations from a re-analysis of the deposited data

Results flagged for a closer look

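Ccl2, Ccl4 and Ccl7 pointed opposite ways in the 2 macrophage classes. In border-associated-macrophage-like cells their log2 ratios of dexamethasone over control were -1.03, -1.50 and -1.50. In microglia-like cells they were 0.76, 0.84 and 0.62. The difference between the classes was not tested, since each class had 1 library per group. The opposite direction was not stable for Ccl2 and Ccl4. With the chemokine genes left in for clustering, the ratios in border-associated-macrophage-like cells were 0.31 for Ccl2 (-0.03 to 0.66, which spans 0), 1.0 for Ccl4 and -0.85 for Ccl7. For Ccl4 the direction in border-associated-macrophage-like cells turned to 0.41 without the cell with the most ligand UMIs in each library, and Ccl2 then stood at -0.49 and Ccl7 at -0.86.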

How the results depend on the processing

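No paired analysis was possible because each group has 1 library. The ligand log2 ratios in microglia-like cells stayed above 0 in 13 of 13 alternatives, ranging from 0.36 to 1.07 for Ccl2, 0.28 to 0.57 for Ccl3, 0.23 to 1.06 for Ccl4, 0.13 to 0.81 for Ccl7 and 1.09 to 1.55 for Ccl12. Ccr1 ranged from -0.18 to 0.47 and was above 0 in 4. The count of genes past the threshold was 4, and became 2 with all variable genes used for clustering, 1 at Leiden resolution 1.0, 2 with both macrophage classes together and 1 at a threshold of 1.0. The share over all genes was not computed under these alternatives, so a change against the background cannot be read from the counts. The share difference of 9.99 points was 13.2 without cluster 2, 5.43 for at least 3 UMIs and 1.06 for at least 10 UMIs. The Ccl2 and Ccl7 ratio was 9.62 in dexamethasone cells gated by single-cell markers, 10.6 and 11.6 in the dexamethasone and control libraries at a thinning depth of 1950 UMIs, and 5.34 and 6.36 without thinning. The Ccr1 share of border-associated-macrophage-like minus microglia-like cells was 10.1 and 14.8 points, and 28.5 and 34.4 without thinning. In border-associated-macrophage-like cells, Ccl4 turned to 0.41 without the highest cells. With all variable genes used for clustering, Ccl4 turned to 1.0 and Ccl2 stood at 0.31 (-0.03 to 0.66, which spans 0). The highest control cell then clustered with microglia-like cells. The alternatives without cluster 2, without mast-marker cells, without the highest cells, with both macrophage classes together and with the unnamed cluster added, those for single clusters and those for border-associated-macrophage-like cells, were chosen after seeing the data. The other causes were not tested. Depth limits the shares of Ccr1 in microglia-like cells and of single UMIs in every class.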

Other observations

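At the finer clustering (Leiden resolution 1.0), clusters with Spp1 differed in their ligands. How their cells map to cluster 3 was not tabulated. One cluster of 287 dexamethasone and 427 control cells, with 2376 and 1946 CPM of Spp1, had 622 and 522 CPM of Ccl3. Another cluster of 213 and 701 cells, with 241 and 319 CPM of Spp1, had 348 and 151 CPM of Ccl2 and 294 and 159 CPM of Ccl7, but 204 and 168 CPM of Ccl3. Ccl12 stood at 8.04 and 2.87 CPM in the first and 16.8 and 18.4 CPM in the second. Ccl2 was itself the first leading gene of the second cluster, so its height there describes the cluster. A further cluster of 309 and 382 cells, with 209 and 199 CPM of Spp1, had 46.6 and 36.6 CPM of Ccl2.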
